A study of Mus musculus with 26 samples.

Results

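The genes described here are 110 genes of mouse embryonic stem cells whose array signal in scramble control was lower at 8 h than at 4 h by at least 0.5 on the log2 scale. They were chosen from 22180 genes on group means of the time course, with the brightest probe set of a single symbol standing for each gene. A scramble 0 h mean of at least 8 left 7909 genes, and a 4 h minus 0 h change above -0.4 left 6984. The fall of 0.5 or more after 4 h left 176. Of these, 63 were removed because their 8 h minus 0 h change in a knockdown lay 0.4 or more above scramble, and 3 as histone, small nucleolar or numbered zinc finger genes. Every scramble value of the time course below, and every time course comparison of a knockdown with scramble, belongs to the values behind this choice and is a description. At the edge of the choice, the 8 h minus 4 h change in scramble was -0.501 for Fbxl20, -0.502 for Phf3 and -0.502 for Gsk3b, and Zc3h4 sat at the limit itself. The genes that just missed it were Rnf220 at -0.498, Ddx20 at -0.497, Pced1b at -0.497 and Rccd1 at -0.493.

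The cells were of the J1 line, grown with serum and leukaemia inhibitory factor above irradiated embryonic fibroblasts. RNA was purified for poly(A) and measured on 26 arrays, 2 per group. The time course compared scramble control, Mettl14 knockdown and Mettl3 knockdown at 0 h, 4 h and 8 h, in 18 arrays. A repeat set of 8 arrays at 0 h gave Mettl14 knockdown, Mettl3 knockdown and a separate scramble control for each. Both lentiviral short hairpin RNA with puromycin selection and transfection of small interfering RNA appear in the labels, without a link to single arrays. They do not state what the cells received during the 4 h and 8 h. In the repeat set, replicate 2 of each scramble control is described as 4 h in a single label field and as 0 h in the others, and it was taken as 0 h. The question of the series is whether RNA methylation makes transcripts of developmental genes less stable.

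Mettl3 and Mettl14 form the core of the methyltransferase for N6-methyladenosine (m6A), an mRNA mark known to shorten the life of many transcripts. The level of a transcript over time depends on how fast it is made and how fast it is degraded. Transcripts of immediate early and feedback genes are typically short-lived, and those of metabolic and cytoskeletal genes long-lived. Among the genes described here are those of chromatin proteins such as Sin3a and Ep300, general transcription factors such as Tbp, kinetochore proteins such as Ska3, and the Hedgehog transcription factors Gli1 and Gli3.

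The signal is the log2 intensity per probe set after robust multi-array averaging (RMA), which makes the intensity distributions of the arrays alike, so a fall is relative to the other transcripts of the same array. Pearson's r between replicate arrays was 0.9869 to 0.9926 over probe sets, and precision is limited by having 2 arrays per group. Separate cultures are not named in the labels, which speak of biological replicates, so the spread behind each p-value may be technical in part. Mettl14 had a mean of 9.09 in scramble at 0 h and 7.40 in its knockdown, and 8.78 against 7.42 in the repeat set. The only probe set listed for Mettl3 is shared with Tox4, and it stood at 11.04 in scramble, 9.15 in the Mettl3 knockdown at 0 h and 8.76 against 10.84 in the repeat set. Of 8 stem cell markers, scramble 0 h means ran from 5.73 for Dppa5a to 12.8, and those of 10 fibroblast markers ran from 4.07 to 7.31. A longer list of 25 fibroblast markers reached 12.33 there, with a median of 7.10. In that list 7 genes had a scramble 0 h mean of at least 8, so the shorter list does not show that fibroblast signal was low.

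A pair of promoters shows the short motifs that were looked for in the members. Hspa1b codes for a stress-inducible chaperone of the Hsp70 family, and its heat shock element is a textbook example, so it is shown with the element's GAANNTTC core and the CCAAT box in capitals. Ska3 codes for a subunit of the Ska complex, which holds kinetochores to microtubules, and is shown because it held CCGGAAG, the core bound by ETS family factors, on both strands. Each line gives the 250 bases before the RefSeq start, from GRCm38.p6: chr17:34959239-34959488 on the minus strand for Hspa1b and chr14:57826164-57826413 on the minus strand for Ska3.
Hspa1b: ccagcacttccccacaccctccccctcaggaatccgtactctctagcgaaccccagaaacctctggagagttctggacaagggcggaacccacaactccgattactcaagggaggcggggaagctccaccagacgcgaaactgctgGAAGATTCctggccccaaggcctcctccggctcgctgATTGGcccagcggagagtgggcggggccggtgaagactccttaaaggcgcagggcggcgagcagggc
Ska3: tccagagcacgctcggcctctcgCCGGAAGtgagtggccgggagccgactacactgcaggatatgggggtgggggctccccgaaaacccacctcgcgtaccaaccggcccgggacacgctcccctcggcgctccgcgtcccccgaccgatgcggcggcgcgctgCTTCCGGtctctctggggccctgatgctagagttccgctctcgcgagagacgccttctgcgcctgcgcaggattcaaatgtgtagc
In Hspa1b, GAANNTTC lay 104 to 97 bases before the start and CCAAT, on the reverse strand, 67 to 63 bases before it. In Ska3, CCGGAAG lay 227 to 221 bases before the start and again, on the reverse strand, 86 to 80 bases before it.

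RefSeq windows of 300 bases, 250 before and 50 after the start, were at hand for 88 of the 110 genes, with 106 windows among them. On either strand, CCGGAAG was found in 17.9% of these windows and in 8.86% of all 32851 windows in the table. The 16 genes that held it included Ska3, Atmin, Cenpq, Kif18b, Ints12, Rnf168 and Gin1. CCAAT was found in 40.6% of the windows against 37.4% of all, and TGACGTCA in 2.83% against 1.79%. TATAAA was found in 3.77% against 13.6%, and GAANNTTC in 4.72% against 7.86%, in the windows of Hspa1b, Gin1, Arhgap21, Btaf1 and BC065397. Overlaps between motifs were not removed, several windows belong to 1 gene, and the shares are descriptions of letters, not of binding. The 32851 windows were not limited to genes of the members' signal level. Whether the shares of the members differ from those of such genes was not tested.

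In scramble, the median of the 110 genes was lower at each step. The median change was -0.298 from 0 h to 4 h and -0.559 from 4 h to 8 h, against 0.127 and -0.024 over the 7909 genes of that signal level. At 4 h, 105 of the 110 already lay below their 0 h mean, so the fall was later mainly in its size. At 8 h the median gene held 55.2% of its 0 h signal, with a range from 39.5% for Hspa1b to 77.4% for Cyp20a1. Usp2, Usp25, Mphosph10, Mrpl32 and Cyp20a1 were the 5 genes above their 0 h mean at 4 h. In both replicates read apart, all 110 changes after 4 h were below 0, with medians of -0.544 and -0.607, and 62 genes were at or below -0.5 in both. In such bulk samples, fewer cells with a transcript and less of it per cell cannot be told apart.

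**Figure D1:**
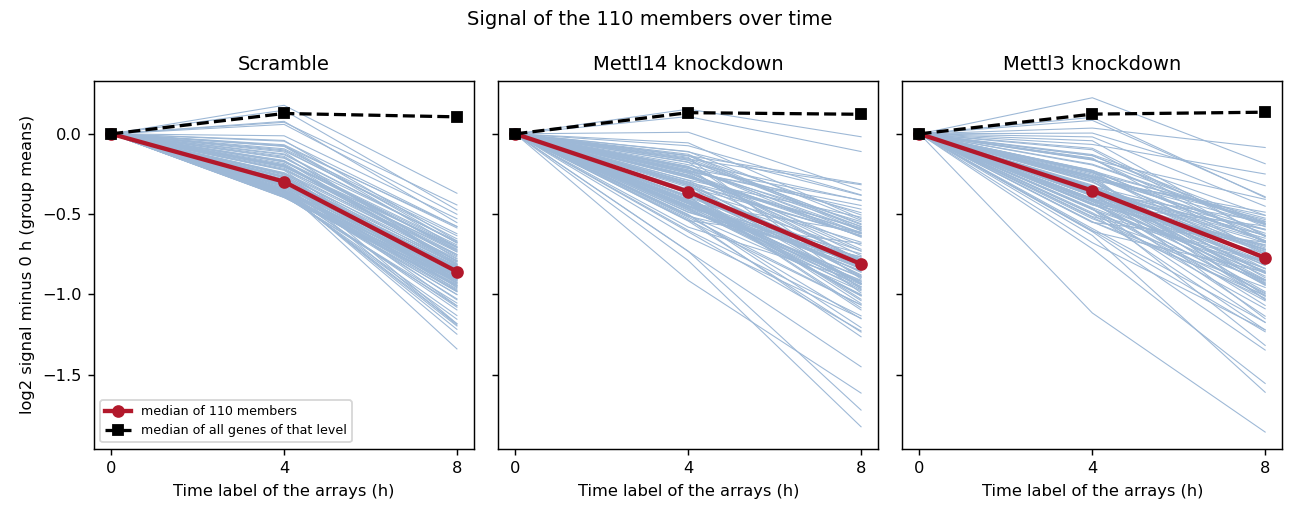
Log2 signal minus the 0 h mean (vertical axis) at 0, 4 and 8 h for scramble, Mettl14 knockdown and Mettl3 knockdown, with a thin line per gene (group means of 2 arrays), a red line for the median of the 110 genes and a dashed black line for the median of the 7909 genes of that signal level. The red line reaches -0.858 in scramble, -0.811 in Mettl14 knockdown and -0.772 in Mettl3 knockdown at 8 h, while the dashed line stays above 0.

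The choice was also made on 1 replicate number at a time and read in the other arrays. Choosing on replicate 1 gave 99 genes, 69 of them among the 110, whose median change after 4 h in replicate 2 was -0.549. Of these, 63.6% were at or below -0.5 there, against 9.115% of the genes with enough signal. Choosing on replicate 2 gave 115 genes, 63 of them among the 110, with a median of -0.488 in replicate 1, and 48.7% were at or below -0.5, against 6.144%. These are other sets of genes than the 110, whose choice used all scramble arrays of the time course, so the values describe how such a choice varies between replicates.

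The membership itself moved strongly with the scaling of the arrays. After a further quantile normalization of the time course, the same rule gave 36 genes, of which 29 were among the 110. When every array was shifted to an equal median of 33 long-lived metabolic and cytoskeletal transcripts, it gave 94 genes, of which 21 were shared. That list's median in scramble was higher by 0.22 between 0 h and 4 h and by 0.127 between 4 h and 8 h, which is the shift between both scales. The 110 genes themselves had a median change after 4 h of -0.484 after the further quantile normalization and of -0.686 on the long-lived scale. Leaving out 1 array gave 90 to 133 genes, of which 71 to 110 were shared. The rule does not use the knockdown arrays at 4 h, so leaving out 1 of those returns the same 110. Without 1 scramble array, 71 to 99 were shared.

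The deepest late falls were those of Hspa1b and Ska3. Hspa1b had scramble signals of 9.13 and 8.79 at 0 h, 8.61 and 8.61 at 4 h, and 7.58 and 7.66 at 8 h. The 8 h arrays lay far below all others, and the change after 4 h was -0.99 ± 0.16 (± gives the standard error from limma throughout). Its near copy Hspa1a, whose RNA can bind the same probes, changed by -0.38 ± 0.23 after 4 h. Ska3 had scramble signals of 10.25 and 10.13 at 0 h, 10 and 9.84 at 4 h, and 9.03 and 8.99 at 8 h. Its early change was -0.27 and its late change -0.91 ± 0.07, and no array of 1 time overlapped with those of another.

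Next came Mterf3, a regulator of mitochondrial transcription, at -0.90 ± 0.10, and Sap30, a subunit of the Sin3 histone deacetylase complex, at -0.88 ± 0.08. Gin1, a gene related to retrotransposon integrases, changed by -0.86 ± 0.15 between 4 h and 8 h, and its 8 h arrays of 7.78 and 7.26 differed more than those of the other leading genes except Zscan26. Ext1, which builds heparan sulphate chains, changed by -0.83 ± 0.07, Atmin, a zinc finger protein that binds the kinase ATM, by -0.82 ± 0.06, and Ppp1r8, a nuclear inhibitor of protein phosphatase 1, by -0.78 ± 0.05. Zscan26, a zinc finger protein, stood at -0.78 ± 0.17, with 8 h arrays at 8.81 and 8.16. The last of the 12 largest late falls were Ajuba (-0.76 ± 0.05), a LIM-domain scaffold of cell junctions, Fam76b (-0.74 ± 0.11) and Sox15 (-0.73 ± 0.10), a Sox factor of stem cells. For all 12, the early change in scramble lay between -0.38 and -0.23.

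Among the pathway lists, the chromatin modifiers and remodellers held 6 of the 110 genes out of 113 list genes with enough signal, or 5.31%, beside 1.391% of all 7909. The limit of -0.5 bounds their late changes in scramble, and the quartiles of all 110 genes were -0.63 and -0.53. The first were Setd1a (-0.61 ± 0.08), which methylates lysine 4 of histone H3, and Sin3a (-0.56 ± 0.06), the scaffold of the Sin3 complex. Next were Arid1a (-0.56 ± 0.05) and Arid2 (-0.52 ± 0.06), both subunits of SWI/SNF remodellers. Then came Ep300 (-0.52 ± 0.05), a histone acetyltransferase, and Phf3 (-0.50 ± 0.04), which binds RNA polymerase II. In the whole chromatin list 14 genes had a late change of -0.5 or lower, or 12.4%, beside 7.35% of the 7909 genes. The median late change of the list was -0.121. Sap30 stands outside that list but its protein works with Sin3a.

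The general transcription list gave 3 of 81 genes: Tbp (-0.62 ± 0.06), the TATA-binding protein, Gtf2b (-0.55 ± 0.07), the initiation factor TFIIB, and Taf5 (-0.53 ± 0.07), a TFIID subunit. Taf5 showed a sharp turn, with scramble signals of 9.79 and 9.88 at 0 h, 9.76 and 9.83 at 4 h, and 9.35 and 9.17 at 8 h. Ubiquitin enzymes gave 3 of 91 genes: Usp25 (-0.62 ± 0.10) and Usp32 (-0.53 ± 0.10), both deubiquitinases, and Rnf168 (-0.56 ± 0.06), a ligase of the DNA damage response. Membrane traffic and autophagy gave 3 of 111: Atg14 (-0.65 ± 0.13) and Rb1cc1 (-0.53 ± 0.10), which act when autophagosomes form, and Exoc1 (-0.55 ± 0.06) of the exocyst. The mitosis list gave Cenpq (-0.70 ± 0.10) and Kif18b (-0.57 ± 0.05) out of 98, a kinetochore protein and a kinesin that shortens microtubules. Replication and repair gave 1 of 101, the nuclease Exo1 (-0.52 ± 0.06), and the list of Wnt and other signalling pathways 1 of 63, the kinase Gsk3b (-0.50 ± 0.07).

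The share of genes with a late change of -0.5 or lower was similar or higher in several other lists. It was 36.6% of the short-lived regulators, 17.6% of the pluripotency genes, 17.5% of the Wnt and other signalling genes, 12.3% of the general transcription list, 12.1% of the ubiquitin enzymes and 10.3% of the splicing and RNA processing genes. None of the 34 pluripotency genes with enough signal, 97 splicing and RNA processing genes, 43 nuclear pore genes, 32 long-lived genes or 7 fibroblast genes was among the 110. None of the 41 short-lived regulators was either. Those regulators had a median change of -1.021 in scramble before 4 h, and 34 of the 41 were lower by 0.4 or more by then, so the bound on the early change left most of them out. A mirrored choice, of genes at -0.5 or lower before 4 h and above -0.4 after it, held 158 genes, whose median change after 4 h was -0.192.

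All 110 genes were below their 0 h mean at 8 h in both knockdowns, which the bound on the knockdowns had fixed for all but Cyp20a1. In Mettl14 knockdown the 110 genes had a median change of -0.360 before 4 h and -0.449 after it, and in Mettl3 knockdown of -0.354 and -0.443. The late change was the larger in 83 of 110 genes in Mettl14 knockdown and in 76 in Mettl3 knockdown, where the choice fixed it for all in scramble. Only 19 and 24 genes met the scramble criteria within the respective knockdown. At 8 h the median share of the 0 h signal was 57.0% and 58.5%, close to the 55.2% of scramble on the deposited scale. The median changes from 0 h to 8 h behind these shares were -0.811, -0.772 and -0.858. On the long-lived scale they were -0.984 in Mettl14 knockdown, -1.088 in Mettl3 knockdown and -1.205 in scramble, so this closeness depends on the scaling. It depends on the choice as well, since the bound on this same change removed 63 genes that lost less in a knockdown. Nothing is therefore read from the closeness. Values in scramble were chosen for a late fall and those in the knockdowns only bounded at 8 h. The choice thus favours a larger late fall in scramble than in the knockdowns. Over the 7909 genes of that signal level, 581 had a late change of -0.5 or lower in scramble, 253 in Mettl14 knockdown and 228 in Mettl3 knockdown. How much of the gap among the 110 comes from the choice was not tested.

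**Figure D2:**
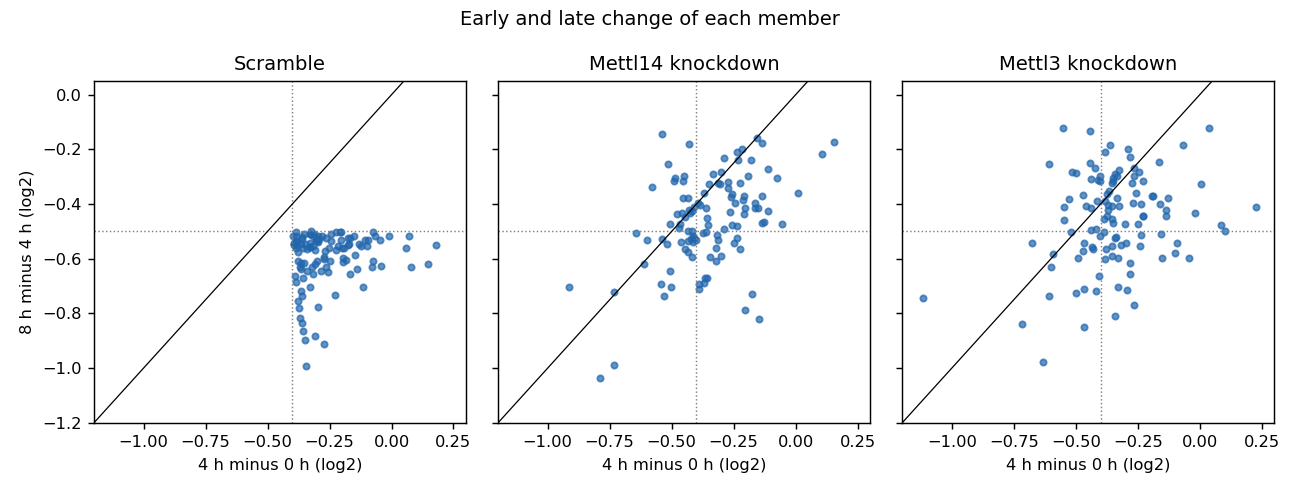
Change from 0 h to 4 h (horizontal axis, log2) against change from 4 h to 8 h (vertical axis, log2) for each of the 110 genes, in scramble, Mettl14 knockdown and Mettl3 knockdown; dotted lines mark the limits of -0.4 and -0.5 and the solid line equal changes. In scramble the choice confines all points to the lower right corner, whereas 45 genes in Mettl14 knockdown and 39 in Mettl3 knockdown lie at -0.4 or lower on the horizontal axis.

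The early change in the knockdowns is given as a description. Their 4 h arrays played no part in the choice, but their 0 h arrays did, and nearly all of the 110 were bound to be lower at 8 h than at 0 h. In Mettl14 knockdown 78 of the 110 genes had an early change below 0 past the limma threshold (Benjamini-Hochberg adjusted) and 0 above 0, beside 13.1% lower and 33.0% higher among all 14787 genes tested. At an unadjusted p under 0.05, too, 0 were higher. In Mettl3 knockdown the counts were 82 and 1, beside 13.1% and 31.5%. Since the choice favours genes that are lower in the knockdowns at 8 h, nothing is read from these counts against the background. On the long-lived scale 96 and 102 of the 110 were lower, while the split of all genes turned from 4882 higher and 1944 lower to 1979 and 2599 in Mettl14 knockdown, and from 4662 and 1930 to 785 and 4076 in Mettl3 knockdown. In scramble 70 of the 110 had an early change past the same threshold and below 0, a count that the bound of -0.4 limits, beside 13.5% of all genes. The scramble arrays entered the choice, so nothing is read from this count either.

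Nmd3, the adaptor that exports the large ribosomal subunit, had the lowest early change in Mettl14 knockdown by its brightest probe set. Its signals there were 11.48 and 11.46 at 0 h, 10.56 and 10.56 at 4 h, and 9.81 and 9.90 at 8 h. In Mettl3 knockdown they were 11.43 and 11.50, then 10.78 and 10.72, then 9.93 and 9.90. The arrays of different times did not overlap in either knockdown, and the changes before 4 h were -0.91 ± 0.05 and -0.72 ± 0.05. With the mean of its probe sets they were -0.55 and -0.44, smaller in Mettl14 knockdown than those of Sap30 and Ints12. In scramble Nmd3 changed by -0.36 before 4 h and -0.55 after it, and it held 53.3% of its signal at 8 h, against 32.6% and 34.0% in the knockdowns.

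Sap30 changed early by -0.79 ± 0.08 in Mettl14 knockdown and by -0.63 ± 0.08 in Mettl3 knockdown. It was left with 28.2% and 32.8% of its 0 h signal at 8 h, against 43.8% in scramble. Ints12, a subunit of the Integrator complex, changed by -0.73 ± 0.08 in Mettl14 knockdown, and Kif18b by -0.68 ± 0.05 in Mettl3 knockdown. Hspa1b changed by -1.12 ± 0.16 before 4 h in Mettl3 knockdown and by -0.73 ± 0.16 in Mettl14 knockdown. Cyp20a1, a cytochrome P450 of unknown substrate, was the gene past the threshold upwards in Mettl3 knockdown, at 0.23 ± 0.08, from 9.77 and 9.87 to 10.10 and 9.99. It was not past it without replicate 1 at either time, without the filter, after further quantile normalization (0.18) or on the long-lived scale (0.01). The change was 0.18 in scramble and 0.15 in Mettl14 knockdown.

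The knockdowns were compared directly at 4 h, on arrays that the choice did not use. Between Mettl14 and Mettl3 knockdown, 2 of the 110 genes were higher and 4 lower, or 1.82% and 3.64%, beside 3.23% and 2.88% of all genes tested, so these shares lie near the background. Ugcg, which makes glucosylceramide, had 9.97 and 9.98 in Mettl14 knockdown and 9.65 and 9.52 in Mettl3 knockdown at 4 h, without overlap. The difference was 0.39 ± 0.06 (adjusted p = 0.00378). Cxxc5, a CXXC zinc finger protein, was higher by 0.27 ± 0.05 (adjusted p = 0.0127). The genes lower in Mettl14 knockdown were the heat shock factor Hsf2 (-0.22 ± 0.06, adjusted p = 0.0362), Arhgap21 (-0.22 ± 0.06, adjusted p = 0.0364), Nmd3 (-0.19 ± 0.05, adjusted p = 0.0402) and Atf7ip (-0.19 ± 0.05, adjusted p = 0.0309), a partner of the methyltransferase Setdb1. Each of the 6 calls was lost on leaving out at least 1 array of the Mettl3 knockdown at 4 h, and Ugcg's only without its replicate 2, at adjusted p = 0.0523. The other 5 were also lost on the long-lived scale. The Nmd3 difference was lost in 16 of the settings and was -0.02 (adjusted p = 0.931) with the mean of its probe sets.

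The repeat set gives the knockdown effects at 0 h on arrays outside the choice. In Mettl14 knockdown 21 of the 110 genes rose and 27 fell against their own scramble, or 19.1% and 24.5%, beside 19.4% higher and 16.9% lower among all genes tested. In Mettl3 knockdown 18 rose and 31 fell, or 16.4% and 28.2%, beside 17.9% and 17.4%. Among the 7907 tested genes of the same signal level, however, 20.2% were higher and 22.9% lower after Mettl14 knockdown, and 17.9% and 24.3% after Mettl3 knockdown. The shares of the 110 lie close to these, and their medians were -0.029 and -0.076, beside -0.015 and -0.026 at that signal level. Without either replicate of the Mettl14 knockdown 13 genes rose in it, and without replicate 2 of its scramble 14. The summed signal of 25 fibroblast markers was 15753 in scramble and 18421 after Mettl14 knockdown, and 14441 and 16377 for the Mettl3 pair. This sum is on the linear scale and weighs the brightest markers most. The median log2 signal of the 25 went the other way for Mettl14, from 7.476 to 7.358. For Mettl3 it went from 7.087 to 7.281. The part of fibroblast RNA in these results was not tested. In the time course the summed signal was 12335, 14111 and 14134 in scramble at 0 h, 4 h and 8 h. It was 16714, 19391 and 20327 in Mettl14 knockdown and 15945, 18241 and 18720 in Mettl3 knockdown.

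Most genes that passed in 1 knockdown passed in the other. Against separate controls, 12 rose in both, which is 57.1% of those raised by Mettl14 knockdown and 66.7% of those raised by Mettl3 knockdown. A fall in both was seen for 21, or 77.8% and 67.7%. Over all genes tested the shares were 64.5% and 69.9% for rises and 66.8% and 64.8% for falls, close to those of the 110. None of the 110 passed the threshold in opposite directions, and 46 passed in neither comparison.

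**Figure D3:**
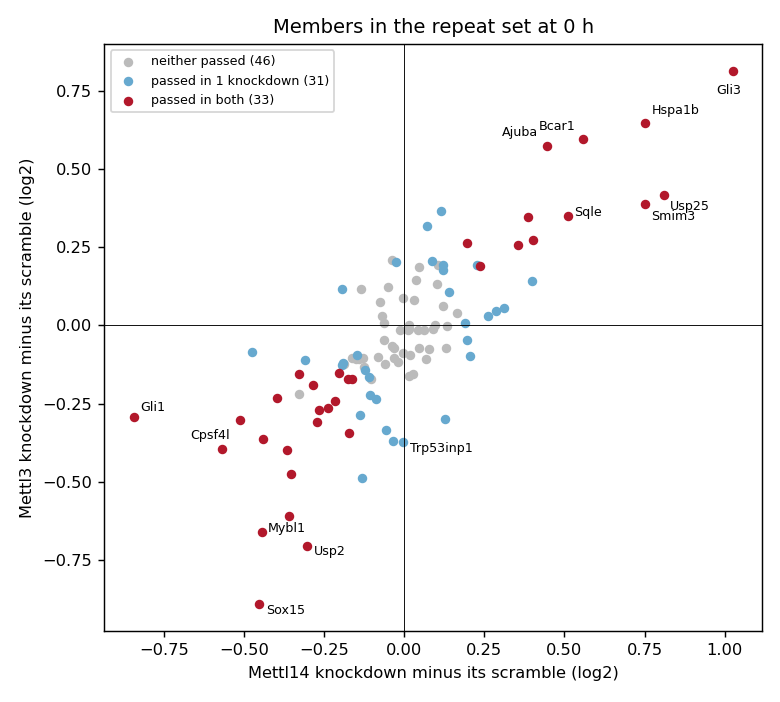
Mettl14 knockdown minus its scramble (horizontal axis, log2) against Mettl3 knockdown minus its scramble (vertical axis, log2) in the repeat set at 0 h, with a point per gene coloured by how many of both comparisons it passed. Of the 110 genes, 33 passed in both, 31 in 1 and 46 in neither. Gli3 lies highest on both axes, Gli1 lowest on the horizontal axis and Sox15 lowest on the vertical axis.

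Gli3 and Gli1, transcription factors of the Hedgehog pathway, lay at opposite ends after Mettl14 knockdown. After Mettl3 knockdown Gli3 was again the highest, but Sox15 and several other genes lay below Gli1. Gli3 had 8.86 and 8.80 in scramble and 9.82 and 9.89 after Mettl14 knockdown, and 8.85 and 8.70 in scramble against 9.59 and 9.60 after Mettl3 knockdown. The groups were far apart, and Gli3 rose by 1.02 ± 0.06 (adjusted p = 6.5e-05) and 0.81 ± 0.06 (adjusted p = 0.000166). Gli1, itself a known target of the pathway, had 9.01 and 8.91 against 8.13 and 8.10 for Mettl14, and 9.28 and 9.26 against 9.02 and 8.94 for Mettl3. It changed by -0.84 ± 0.05 (adjusted p = 7.04e-05) and -0.29 ± 0.05 (adjusted p = 0.00472). Over the time course in scramble, Gli3 showed almost its whole change after 4 h (-0.04, then -0.63), and Gli1 changed by -0.20 and -0.50, with 8 h arrays at 9.469 and 9.001.

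Among the other genes that rose in both knockdowns, Usp25 had 8.48 and 8.56 against 9.28 and 9.38 for Mettl14, and 8.24 and 8.36 against 8.70 and 8.73 for Mettl3. It rose by 0.81 ± 0.06 (adjusted p = 0.000158) and 0.42 ± 0.06 (adjusted p = 0.00255). Hspa1b had 8.33 and 8.17 against 8.85 and 9.16, and 8.20 and 7.99 against 8.79 and 8.70. Its groups did not overlap, and it rose by 0.75 ± 0.12 (adjusted p = 0.00313) and 0.65 ± 0.12 (adjusted p = 0.00601), while Hspa1a did not pass at 0.37 ± 0.15 and 0.32 ± 0.15. Smim3, a small membrane protein, rose by 0.75 ± 0.06 and 0.39 ± 0.06. Bcar1, an adaptor of focal adhesions, rose by 0.56 ± 0.06 and 0.59 ± 0.06, Sqle, an enzyme of cholesterol synthesis, by 0.51 ± 0.05 and 0.35 ± 0.05, and Ajuba by 0.45 ± 0.04 and 0.57 ± 0.04. The adjusted p of Smim3, Bcar1, Sqle and Ajuba was at most 0.00244 in both comparisons, and the calls of all 6 genes held under every setting tried and with any 1 array left out.

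Sox15 led the falls after Mettl3 knockdown. It had 9.68 and 9.54 in scramble and 8.80 and 8.63 in the knockdown, and 9.57 and 9.59 against 9.16 and 9.10 for Mettl14. The changes were -0.89 ± 0.07 (adjusted p = 0.000217) and -0.45 ± 0.07 (adjusted p = 0.0032). Usp2, a deubiquitinase, changed by -0.70 ± 0.04 after Mettl3 knockdown and -0.30 ± 0.04 after Mettl14 knockdown, and Mybl1, a Myb family factor, by -0.66 ± 0.05 and -0.45 ± 0.05. Ube2t, a ubiquitin-conjugating enzyme of the Fanconi pathway, changed by -0.47 ± 0.07 and -0.35 ± 0.07. Cpsf4l changed by -0.57 ± 0.04 after Mettl14 knockdown and -0.39 ± 0.04 after Mettl3 knockdown, and Pnrc2, a factor of messenger RNA decapping, by -0.51 ± 0.06 and -0.30 ± 0.06. Each of these passed at an adjusted p of at most 0.00742.

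Stard8 changed by -0.61 ± 0.09 after Mettl3 knockdown (adjusted p = 0.00235) and by -0.36 ± 0.09 after Mettl14 knockdown (adjusted p = 0.0185), a call lost without replicate 1 of that knockdown or either array of its scramble. Poc5, a centriole protein, changed by -0.49 ± 0.05 after Mettl3 knockdown (adjusted p = 0.000674) and stood at -0.13 ± 0.05 after Mettl14 knockdown (adjusted p = 0.0901). Socs2, an inhibitor of cytokine signalling, changed by -0.48 ± 0.06 after Mettl14 knockdown (adjusted p = 0.00113) and stood at -0.09 ± 0.06 after Mettl3 knockdown (adjusted p = 0.308). The difference between the knockdown effects was -0.39 ± 0.08 for Socs2 (adjusted p = 0.066) and 0.35 ± 0.07 for Poc5 (adjusted p = 0.0598), which did not pass.

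Of the chromatin proteins, Sin3a fell in both knockdowns, with changes of -0.16 ± 0.04 (adjusted p = 0.0217) and -0.17 ± 0.04 (adjusted p = 0.0181), and so did Sap30, with -0.29 ± 0.05 (adjusted p = 0.00331) and -0.19 ± 0.05 (adjusted p = 0.0179). The Sin3a calls were each lost without several single arrays, including both scramble arrays, and so was that of Sap30 after Mettl3 knockdown. Arid2 rose by 0.32 ± 0.05 (adjusted p = 0.00285) and Setd1a by 0.20 ± 0.04 (adjusted p = 0.0104) after Mettl3 knockdown, the latter not without scramble replicate 2 or knockdown replicate 1. They stood at 0.07 ± 0.05 and 0.09 ± 0.04 after Mettl14 knockdown, and Arid1a, Ep300 and Phf3 passed in neither.

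The difference between the knockdown effects passed for 3 genes upwards and 1 downwards, or 2.73% and 0.909% of the 110, beside 1.54% and 1.50% of all genes. Gli1 had the lower Mettl14 effect by -0.55 ± 0.07 (adjusted p = 0.0151). Trp53inp1, a p53-induced gene, stood at 11.19 and 11.17 against 11.16 and 11.19 for Mettl14 and at 11.05 and 11.04 against 10.68 and 10.66 for Mettl3. Its groups overlapped in the first pair and were apart in the second, and the effects differed by 0.37 ± 0.06 (adjusted p = 0.0233). The effects also differed for Gin1 by 0.43 ± 0.07 (adjusted p = 0.0272) and for Usp2 by 0.40 ± 0.06 (adjusted p = 0.0268). These calls did not hold with fewer arrays: those of Trp53inp1, Gin1 and Usp2 were lost whichever of the 8 arrays was left out. That of Gli1 was lost without any of 6 of them. Over all alternatives the differences ran from 0.354 to 0.388 for Trp53inp1, 0.383 to 0.469 for Gin1 and 0.365 to 0.431 for Usp2. For Gli1 the range was -0.61 to -0.504.

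The 0 h effects of both sets were also compared, although the time course arrays entered the choice. The Mettl14 effect was higher in the time course for 11 of the 110 genes and lower for 8 by limma over all 26 arrays, beside 7.86% and 8.64% of all genes tested. The Mettl3 effect was higher for 8 and lower for 5, beside 6.15% and 3.66%. Trp53inp1 had the largest gap in both: its 0 h signals in the time course were 10.66 and 10.66 in scramble, 11.63 and 11.72 in Mettl14 knockdown and 11.54 and 11.51 in Mettl3 knockdown.

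**Figure D4:**
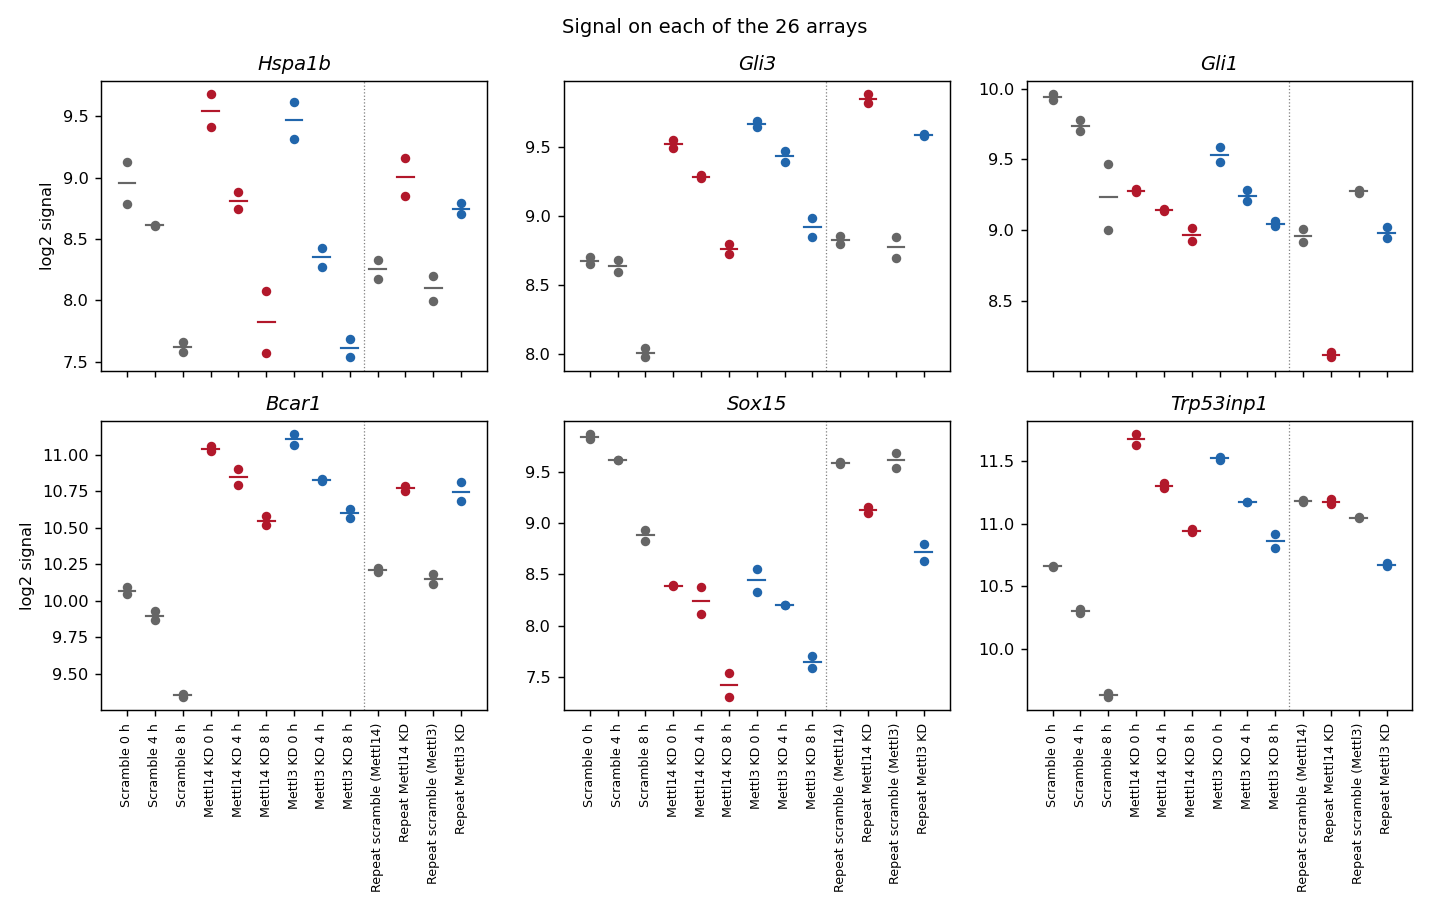
Log2 signal (vertical axis) on each of the 26 arrays for 6 of the 110 genes, with a dot per array, a bar at the mean of each group of 2, and a dotted line between the time course and the repeat set. Gli3 and Bcar1 lie higher in every knockdown group than in the scramble of the same time and set, Sox15 lies lower, and all 6 genes are lower at 8 h than at 0 h in each treatment.

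The starting level and the course after it could differ. Bcar1 had 10.05 and 10.09 in scramble at 0 h, 11.02 and 11.06 in Mettl14 knockdown and 11.07 and 11.14 in Mettl3 knockdown. At 8 h its signals were 9.36 and 9.34 in scramble, 10.52 and 10.58 in Mettl14 knockdown and 10.63 and 10.57 in Mettl3 knockdown. The knockdown arrays thus lay above all scramble arrays throughout, with 60.8% of the 0 h signal left in scramble and 71.1% and 70.3% in the knockdowns. Usp25 held 72.0% in scramble and 92.7% and 94.3% in the knockdowns, and Smim3 65.0%, 80.3% and 84.1%. Sox15 started lower in the knockdowns and kept similar shares of 51.4%, 51.1% and 57.7%. Sin3a held 59.1% in scramble and 43.3% and 45.5% in the knockdowns. The rule caps the share left in the knockdowns and sets no lower limit on it, so these shares are descriptions.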

How the data were processed

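The values are log2 intensities per probe set, as deposited by the authors after RMA; the submitters' processing notes name oligo as the tool, with no version. The genome build and whether all 26 arrays were normalized together are not given in the sources used here. Of 41345 probe sets, a platform table paired 23521 with 1 symbol, 1814 with several and did not list 16010; the first kind gave 22180 genes. The 7393 dimmest genes were left out of the fits, and 14787, with a mean log2 signal of at least 6, were tested.

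Groups were taken from the labels. Comparisons used limma 3.58.1 in R 4.3.3 with two-sided moderated tests, no intensity trend, and Benjamini-Hochberg adjustment over the tested genes at 0.05. The time course had 9 residual degrees of freedom and the repeat set 4. The fit was tested on simulated data. The members, the gene lists and the tests were chosen with earlier results of these data known. Named were the 12 largest late falls, the genes at the limit, the largest calls per tested comparison and up to 6 members per list, without predicted genes. Promoter windows are RefSeq's, of GRCm38.p6. Alternatives covered the filter, the mean of probe sets, a trended robust fit, array weights, replicate blocks, further quantile normalization, scaling on long-lived transcripts, a fit over all 26 arrays and leaving out each array.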

Additional observations from a re-analysis of the deposited data

Results flagged for a closer look

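For 10 of the named genes the effect of Mettl14 knockdown at 0 h, and for 12 that of Mettl3 knockdown, differed between the time course and the repeat set by the interaction term of a limma fit over all 26 arrays (adjusted p under 0.05). The time course effects come from arrays that the choice of genes used.

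Trp53inp1 differed most, by 1.02 ± 0.06 for Mettl14 (adjusted p = 1.8e-08) and 1.24 ± 0.06 for Mettl3 (adjusted p = 2.31e-09). In the time course it was higher in both knockdowns, by 1.01 and 0.87, whereas in the repeat set it stood at -0.00 and -0.37.

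Sox15 was lower in both knockdowns of both sets, and more so in the time course, by -1.0 ± 0.13 for Mettl14 and -0.51 ± 0.13 for Mettl3. Mybl1 stood at 0.18 and 0.02 in the time course and at -0.45 and -0.66 in the repeat set, differences of 0.62 and 0.68. Kif18b differed by 0.30 and 0.50 and Bcar1 by 0.41 and 0.44 for Mettl14 and Mettl3. Cpsf4l differed by -0.34 and -0.33 and Cxxc5 by -0.22 and -0.33.

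For Mettl14 the test also passed for 3 more genes: Gtf2b differed by -0.33, Sin3a by -0.23 and Ugcg by 0.35. For Mettl3 it passed for 5 more: Sap30 differed by -0.36, Atf7ip by 0.23, Arhgap21 by 0.28, Fbxl20 by 0.40 and Smim3 by 0.48.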

How the results depend on the processing

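Of 156 gene results past the threshold, 111 kept their call under all alternatives; over 3386 values, 242 fell short of the threshold and 0 changed sign. None of the 4 calls for the difference of knockdown effects and none of the 6 for the knockdowns against each other at 4 h was kept throughout. Of the 156 gene results, 40 were early changes in Mettl14 knockdown and 43 in Mettl3 knockdown. The choice favours genes lower in the knockdowns at 8 h, so nothing is read from the sign or the stability of these. The number of members was 36 after further quantile normalization and 90 to 133 with 1 array left out, and the cause was not tested. With 1 array left out, which assumes that the lone array varies like the others, 13 to 20 members were higher and 18 to 27 lower after Mettl14 knockdown in the repeat set, and 12 to 19 and 24 to 29 after Mettl3 knockdown. The difference of effects gave 0 to 0 higher and 0 to 1 lower, and the knockdowns against each other at 4 h 0 to 4 and 0 to 5. From 0 h to 4 h, 0 to 1 were higher and 59 to 83 lower in Mettl14 knockdown, and 0 to 1 and 58 to 87 in Mettl3 knockdown. The trended robust fit gave 28 members higher after Mettl3 knockdown in the repeat set, 11 higher and 8 lower for the difference of effects, and 7 higher and 9 lower at 4 h. Without the filter the difference of effects gave 0 and 0, the 4 h comparison 0 lower, and the early change in Mettl3 knockdown 0 higher, as did further quantile normalization and the long-lived scale. The 4 h comparison gave 7 and 7 with array weights, 5 higher after further quantile normalization, 1 and 0 on the long-lived scale, and 6 and 8 in the fit over all 26 arrays, where the difference of effects gave 1 and 2.

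In the repeat set replicate numbers did not pair the arrays: deviations of same-numbered arrays correlated at -0.047 to 0.042. In the time course they correlated at -0.436 to 0.335, over 0.1 in 12 of 36 pairs of groups. Arrays of different groups there thus shared variation that the replicate number does not follow. A replicate block cannot take up such variation, and its source was not tested. The labels name no shared batch. With the replicate number as a block, the difference of effects gave 0 members higher and 1 lower; counts in the other comparisons stayed within 1.5 times.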
